A study of Mus musculus with 16 samples.

Results

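The 6 genes Gucy2d, Pde2a, Cnga3, Car2, Trpc2 and Gucy1b2 are named in the field as genes of necklace neurons and of other atypical sensory neurons of the nose. They were taken as every array probeset whose annotated symbol was one of these 6. That gave 5 probesets, 1 each for Gucy2d, Pde2a, Cnga3, Car2 and Gucy1b2, of 22206 gene probesets in all. Trpc2 was not analysed here because none of the annotated symbols was Trpc2.

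Dissociated olfactory mucosa of S100a5-tauGFP mice was profiled on 16 Clariom S arrays. GFP in this strain follows S100a5, which olfactory neurons transcribe when active. The 24 mice, of both sexes and 7 to 12 weeks old, were each kept in a chamber for 40 h under a flow of clean air (3.1 L/min). After 26 h the vehicle mice received pulses of filtered air and the odorant mice pulses of odorant, each for 10 s every 20 min. Cells of 3 mice were pooled and sorted by fluorescence, which gave 4 groups of 4 arrays: GFP+ and GFP- cells of vehicle mice and GFP+ and GFP- cells of odorant mice. The 8 pools each supplied both fractions, as 24 mice in pools of 3 imply. Bourgeonal is the odorant in the sample labels and indole in the series title, and the text below says only odorant. All groups share the S100a5-tauGFP allele, and GFP- denotes cells without the reporter signal, of any cell type.

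Most olfactory sensory neurons detect odours through a cyclic AMP cascade of Gnal, Adcy3 and the channel subunit Cnga2. Necklace neurons, which send their axons to a ring of glomeruli at the back of the olfactory bulb, use cyclic GMP instead. In these cells the receptor guanylyl cyclase GC-D, encoded by Gucy2d, makes cyclic GMP, Cnga3 forms part of the channel that cyclic GMP opens, Pde2a is the phosphodiesterase that breaks cyclic GMP down, and Car2 is the carbonic anhydrase that turns CO2 into the bicarbonate that stimulates GC-D. Proteins of the Ms4a family serve as their chemoreceptors. Gucy1b2, a subunit of soluble guanylyl cyclase, and the channel Trpc2 mark another small population, in the main epithelium, known for its response to low oxygen. Car2 is also a major enzyme of red blood cells, and Pde2a is made in many other tissues.

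The values are log2 probeset signals as deposited. A probeset was taken as above background on an array when it exceeded the 95th percentile of 23 control probesets that match no mouse sequence, a level of 6.57 to 6.87 depending on the array. Between 46.7% and 50.9% of gene probesets lay above that level on an array. The median of an array was 6.29 to 6.38 for GFP+ cells and 6.64 to 6.76 for GFP-, and arrays of the same group correlated at 0.987 to 0.994. The pools numbered 4 stood apart in Eif2s3y, a Y-linked gene. It was at 2.63 to 3.41 on their 4 arrays and at 9.95 to 11.2 on the other 12. Their GFP+ arrays also had the highest Pde2a signal of their group, 7.24 with vehicle and 7.55 with odorant. The fraction differences of Pde2a and Car2 are given with and without these pools. Omp, the marker of mature olfactory neurons, was high everywhere, with group means of 18.6 to 18.7. S100a5, on which the sort rests, was higher in GFP+ cells by 0.93 on the log2 scale in vehicle mice (adjusted p = 0.0024) and by 1.14 in odorant mice (adjusted p = 0.0025).

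The defining genes of necklace neurons were not detected above background in any fraction. Gucy2d, the GC-D gene, lay between 3.03 and 4.31 on the 16 arrays and exceeded background on 0 of them. Cnga3 lay between 3.24 and 3.65 and also exceeded background on 0 of 16. Gucy1b2, the marker of the oxygen-sensing population, lay between 4.72 and 6.77 and exceeded background on 1 array, GFP- cells of odorant replicate 2. Only Car2, on 16 of 16 arrays, and Pde2a, on 13 of 16, were measured above background on 4 or more arrays. These arrays therefore do not bear out the label of necklace neurons for the 5 probesets, and the genes are described one by one.

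**Figure D1:**
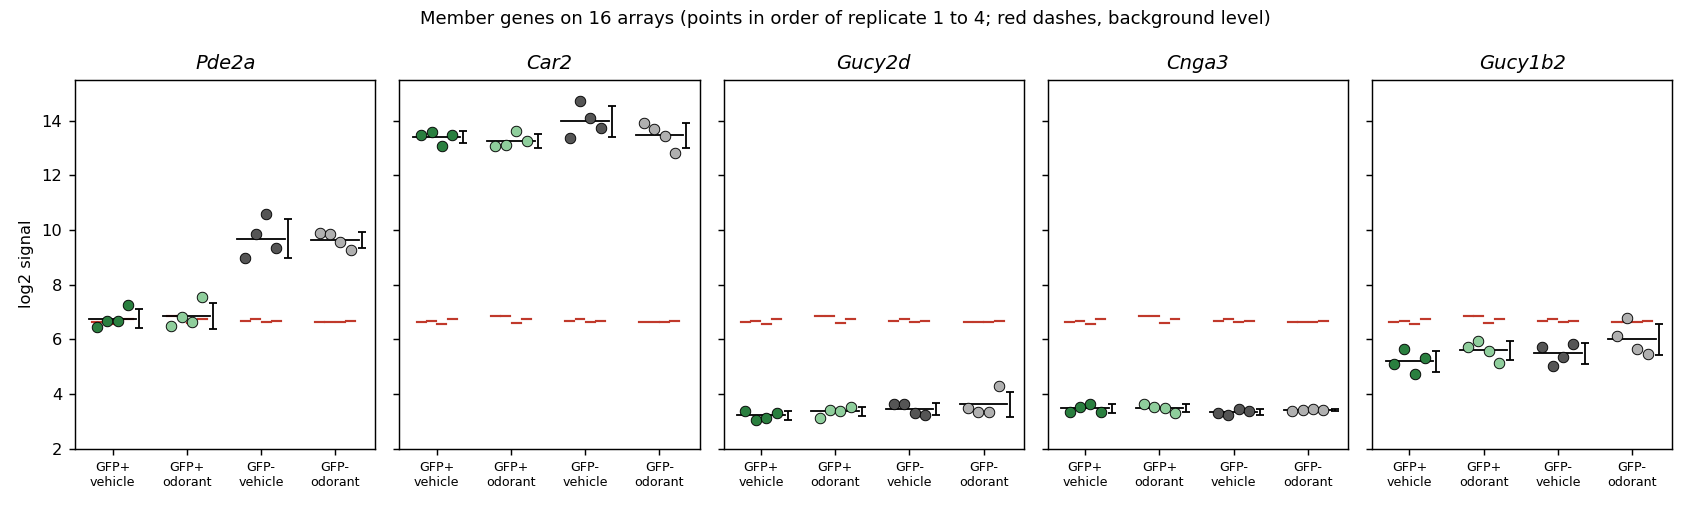
Log2 signal (vertical axis) of the 5 measured genes on each of the 16 arrays, by sorted fraction and treatment (horizontal axis), with points in the order of replicate 1 to 4, horizontal lines for group means, bars for the mean ± SD over 4 arrays and red dashes for each array's background level. Pde2a sits at 8.97 or above on all 8 GFP- arrays and at 7.55 or below on all 8 GFP+ arrays, Car2 is far above background everywhere, and Gucy2d and Cnga3 stay below background everywhere.

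Pde2a was the gene that the sort separated. In vehicle mice its log2 signal was 6.47, 6.67, 6.67 and 7.24 in the 4 GFP+ arrays (6.76 ± 0.33, SD, n = 4) and 8.97, 9.85, 10.59 and 9.34 in the 4 GFP- arrays (9.68 ± 0.70, SD, n = 4). In odorant mice it was 6.47, 6.82, 6.63 and 7.55 in GFP+ cells (6.87 ± 0.48, SD, n = 4) and 9.90, 9.84, 9.56 and 9.26 in GFP- cells (9.64 ± 0.29, SD, n = 4). The fractions did not overlap under either treatment, and the GFP+ arrays lay close to background, with 3 of 4 above it in vehicle mice and 2 of 4 in odorant mice.

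GFP+ cells of vehicle mice had 7.57-fold less Pde2a signal than GFP- cells (95% interval 4.65 to 12.3), a difference of -2.92 on the log2 scale with an SE of 0.32 (limma, adjusted p = 1.04e-04). In odorant mice the signal was 6.83-fold lower (95% interval 4.70 to 9.91), a difference of -2.77 with an SE of 0.24 (limma, adjusted p = 1.64e-05). A difference lower than that of Pde2a was found for 2.00% of the 22206 probesets in vehicle mice and for 1.86% in odorant mice. Few probesets were further below 0 than Pde2a.

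Within pools the GFP+ cells had less Pde2a than the GFP- cells of the same mice in 8 of 8 pools, by 1.70 to 3.92 on the log2 scale. The pools numbered 4 had the smallest difference under each treatment, -2.09 with vehicle and -1.70 with odorant. Without them the difference was -3.20 in vehicle mice and -3.13 in odorant mice, so it was as large without these pools. With any 1 array left out, the difference in vehicle mice stayed between -3.16 and -2.62, and in odorant mice it was -2.64 or further from 0. In pooled sorted cells, fewer cells of a type and less RNA per cell cannot be told apart.

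Of the 5 members, 1 of 5 was called lower and 0 of 5 higher in GFP+ cells in each treatment. Over all gene probesets 17.7% were called between the fractions in vehicle mice (9.97% lower and 7.76% higher in GFP+ cells), and 11.4% in odorant mice (7.84% lower and 3.57% higher). The members' median difference was -0.29 in vehicle mice, beside 0.082 over all gene probesets, and -0.26 in odorant mice, beside 0.10. With array medians subtracted, a second member, Cnga3, was called higher at 0.49 (adjusted p = 0.017) and 0.39 (adjusted p = 0.048), although it was at background on all arrays. That subtraction also raised the median of all probesets to 0.45 and 0.42, close to the Cnga3 values.

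**Figure D2:**
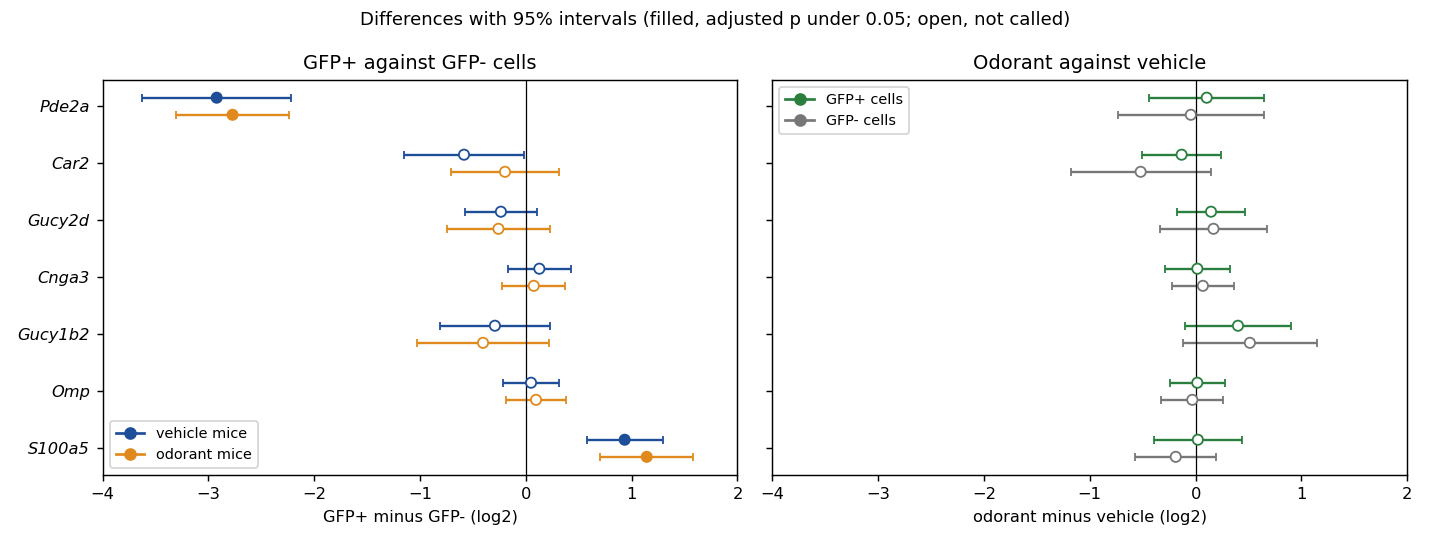
Differences in log2 signal (horizontal axes) with 95% intervals for the 5 measured genes, Omp and S100a5, as GFP+ minus GFP- cells (left) and odorant minus vehicle (right), with filled points where the adjusted p was under 0.05. Among the 5 genes, Pde2a alone has filled points, at -2.92 and -2.77 between the fractions, and no gene has one between the treatments.

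RefSeq lists 5 transcription start windows for Pde2a, each of 300 bases from 250 before to 50 after a start. The array has 1 Pde2a probeset and cannot tell these starts apart. Windows holding 2 short motifs are shown because Pde2a was the member that differed, with the motifs chosen after its values were seen: the GC box GGGCGG and the core GAGGAAG bound by PU.1, a transcription factor of myeloid cells, each searched on both strands. The window at chr7:101451002-101451301 (GRCm38.p6, plus strand) held 5 GC boxes, some of them overlapping, and is 69.7% G and C. The window at chr7:101455812-101456111 (GRCm38.p6, plus strand) held 1 PU.1 core. The other members' windows were searched too: those of Cnga3 held 2 and 1 PU.1 cores, and that of Gucy1b2 held 1 GC box, although neither gene was called between the fractions. Matches are in capitals.
Pde2a GC-rich start: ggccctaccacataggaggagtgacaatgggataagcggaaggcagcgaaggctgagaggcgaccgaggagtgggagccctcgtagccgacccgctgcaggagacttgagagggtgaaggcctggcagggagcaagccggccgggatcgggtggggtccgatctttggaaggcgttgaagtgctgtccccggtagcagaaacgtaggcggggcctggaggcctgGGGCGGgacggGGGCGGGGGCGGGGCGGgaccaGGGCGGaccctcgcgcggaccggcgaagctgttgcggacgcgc
Pde2a downstream start: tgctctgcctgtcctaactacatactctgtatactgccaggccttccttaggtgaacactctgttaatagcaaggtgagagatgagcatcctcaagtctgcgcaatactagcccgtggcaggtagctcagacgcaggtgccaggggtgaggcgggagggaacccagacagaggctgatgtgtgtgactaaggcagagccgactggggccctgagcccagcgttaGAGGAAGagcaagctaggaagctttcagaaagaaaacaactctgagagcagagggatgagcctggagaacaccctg
A GC box was present in 35.7% of 32851 promoter windows of this length and a PU.1 core in 13.6%, so neither is rare. The core CCCNNGGG of early B cell factor motifs, which many olfactory neuron promoters hold, was in 13.7% of all windows and in 0 of the 5 of Pde2a. The windows of Gucy2d, Cnga3, Trpc2 and Gucy1b2 held 0 as well, so its absence does not set Pde2a apart.

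Car2 was abundant in both fractions. In vehicle mice its log2 signal was 13.47, 13.57, 13.09 and 13.47 in GFP+ cells (13.40 ± 0.21, SD, n = 4) and 13.38, 14.71, 14.10 and 13.75 in GFP- cells (13.99 ± 0.56, SD, n = 4). In odorant mice it was 13.07, 13.12, 13.63 and 13.26 in GFP+ cells (13.27 ± 0.25, SD, n = 4) and 13.91, 13.68, 13.45 and 12.83 in GFP- cells (13.47 ± 0.46, SD, n = 4). All 4 groups overlapped with one another, and the GFP- arrays were the more widely spread.

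The Car2 difference between GFP+ and GFP- cells was -0.58 in vehicle mice (SE 0.26, 95% interval -1.15 to -0.016), which had an unadjusted p of 0.045 in limma and did not pass after adjustment (adjusted p = 0.15). It was -0.20 in odorant mice (95% interval -0.71 to 0.32, adjusted p = 0.68). Without the pools numbered 4 it was -0.69 in vehicle mice (adjusted p = 0.20) and -0.41 in odorant mice (adjusted p = 0.38). Single GFP- arrays moved the value by over 1.5 times: without vehicle replicate 2 it was -0.34, and in odorant mice it was -0.41 without replicate 4, -0.050 without replicate 1 and -0.12 without replicate 2. Leaving out GFP+ replicate 1 or 3 of the odorant mice gave -0.13 or -0.32. Car2 was not called in any of these fits. Car2 was lower in the GFP+ cells in 5 of 8 pools, namely 3 vehicle and 2 odorant pools. The odorant difference changed sign, to 0.12, with array medians subtracted.

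The remaining members were compared below background, where a difference gives no fold. For Gucy2d the GFP+ minus GFP- difference was -0.24 in vehicle mice (adjusted p = 0.33) and -0.26 in odorant mice (adjusted p = 0.55). For Cnga3 it was 0.13 (adjusted p = 0.56) and 0.075 (adjusted p = 0.79). For Gucy1b2 it was -0.29 (adjusted p = 0.44) and -0.40 (adjusted p = 0.45), with lower values in the GFP+ cells of 7 of 8 pools. None of these differences passed the test, which does not show that the genes are absent or alike in the fractions.

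Whether the odorant changed the genes was asked in each fraction. In GFP+ cells 0 of 5 members were called between odorant and vehicle, and in GFP- cells 0 of 5, where limma called 0% of all gene probesets in either fraction. Unadjusted p-values under 0.05 were found for 3.82% of gene probesets in GFP+ cells and 6.85% in GFP- cells, and for 0 of 5 members in both. Pde2a differed by 0.11 in GFP+ cells (95% interval -0.44 to 0.65) and by -0.045 in GFP- cells (95% interval -0.73 to 0.64). Its order of group means was therefore GFP- vehicle (9.68), GFP- odorant (9.64), GFP+ odorant (6.87) and GFP+ vehicle (6.76), and only the step between the fractions exceeded the spread.

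Car2 differed between odorant and vehicle by -0.13 in GFP+ cells (95% interval -0.51 to 0.24) and by -0.52 in GFP- cells (95% interval -1.18 to 0.14, adjusted p = 0.76). Gucy1b2 had positive differences in both fractions, 0.40 in GFP+ cells (95% interval -0.10 to 0.90, adjusted p = 1.00) and 0.51 in GFP- cells (95% interval -0.12 to 1.15, adjusted p = 0.76), at or below background. The difference of the odorant effect between the fractions was 0.15 for Pde2a (SE 0.43, 95% interval -0.76 to 1.06) and 0.39 for Car2 (SE 0.37, 95% interval -0.38 to 1.16). The interaction was called for 0 of 5 members and for 0% of all gene probesets, with unadjusted p under 0.05 for 4.92% of them in limma.

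Genes that work with the members were then read from the same fits. Of 15 genes of the cyclic AMP cascade and its regulators, 5 were higher and 0 lower in GFP+ cells of vehicle mice, and 2 and 0 in odorant mice. Those called higher were 33.3% and 13.3% of the list, beside 7.76% and 3.57% of all gene probesets. In vehicle mice Pde1c, the calcium-dependent phosphodiesterase of olfactory cilia, was 1.57-fold higher, Pde4a, a cyclic AMP phosphodiesterase, 1.57-fold, the exchanger Slc24a4 1.52-fold and the chloride channel Ano2 1.49-fold. In odorant mice Pde1c (1.61-fold) and Ano2 (1.40-fold) were called higher, whereas Pde4a was not (log2 difference 0.43, adjusted p = 0.26). Pde1c thus differed in the opposite direction to Pde2a in both treatments. The vehicle count was 3 without the pools numbered 4. With array medians subtracted the count was 12 in each treatment, where 46.7% and 34.9% of all gene probesets were called higher too. The odorant count was 1 with the replicate block.

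Cyclic GMP signalling genes showed no common direction. Of 36 genes measured besides the members, 28 were not above background on any array. In GFP+ cells 2 were higher and 2 lower with vehicle (5.56% each), and 1 (2.78%) and 3 (8.33%) with odorant. Over all gene probesets 7.76% were higher and 9.97% lower with vehicle, and 3.57% and 7.84% with odorant. The phosphodiesterase Pde10a was at least 1.14-fold higher in GFP+ cells of vehicle mice (adjusted p = 0.011) and was also called higher in odorant mice (adjusted p = 0.0045). Pde3b, another phosphodiesterase that binds cyclic GMP, was lower in vehicle mice by -1.38 (adjusted p = 0.0023), with 1 of 16 arrays above background. Guca1b, a guanylyl cyclase activator of photoreceptors, was called higher and Pde11a lower in vehicle mice, both at background on every array. With array medians subtracted, 20 and 11 of the 36 were called higher, beside 46.7% and 34.9% of all gene probesets. Without dim probesets 0 of the 36 were called.

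The Ms4a family, the chemoreceptors of necklace neurons, has many members that are best known from leukocytes. Of 18 probesets, 7 (38.9%) were lower and 0 higher in GFP+ cells under each treatment. The share called lower over all gene probesets was 9.97% with vehicle and 7.84% with odorant. Of the 18, 11 were not above background on any array. Ms4a4c was lower in GFP+ cells of vehicle mice, with a log2 difference of -3.41 (adjusted p = 2.46e-05) and Ms4a6c at least 3.76-fold lower (adjusted p = 1.53e-04). Ms4a6b and Ms4a4b were also called lower, by -2.04 and -2.63, with 0 and 1 of 16 arrays above background. Without dim probesets 2 were called lower in each treatment. Ms4a1, known from B cells, was called lower by -0.82 in vehicle mice although at background on every array.

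Among 15 other carbonic anhydrases, 1 was lower and 1 higher in GFP+ cells under each treatment, which is 6.67% each way. Over all gene probesets 9.97% were lower and 7.76% higher in vehicle mice, and 7.84% and 3.57% in odorant mice. Car1, the other abundant carbonic anhydrase of red blood cells, was at least 10.59-fold lower in vehicle mice (adjusted p = 2.49e-04) and at least 4.50-fold lower in odorant mice (adjusted p = 3.66e-05). Car7 was higher by 0.81 in vehicle mice (adjusted p = 0.022), with 1 of 16 arrays above background. With array medians subtracted 9 and 5 of the 15 were called higher, beside 46.7% and 34.9% of all gene probesets. Without dim probesets 0 of them were called higher.

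Of 5 other Trpc channels, 0 were called in either treatment. Among 11 vomeronasal neuron genes, 1 was higher and 1 lower in each treatment, which is 9.09% each way. Over all gene probesets 7.76% were higher and 9.97% lower with vehicle, and 3.57% and 7.84% with odorant. Gnai2, a G protein subunit of vomeronasal neurons that leukocytes also make, was 32.8-fold lower in GFP+ cells of vehicle mice (limma, adjusted p = 1.06e-05). H2-M10.6 was higher there by 0.83 (limma, adjusted p = 0.0085) at background. Of 323 vomeronasal receptor probesets, 321 were never above background, 11 (3.41%) were called higher in vehicle mice and 4 (1.24%) in odorant mice, beside 7.76% and 3.57% called higher among all gene probesets. With array medians subtracted the counts were 170 (52.6%) and 120 (37.2%), beside 46.7% and 34.9% of all gene probesets, so which share was the larger turned with that setting. With the replicate block the odorant count was 10.

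**Figure D3:**
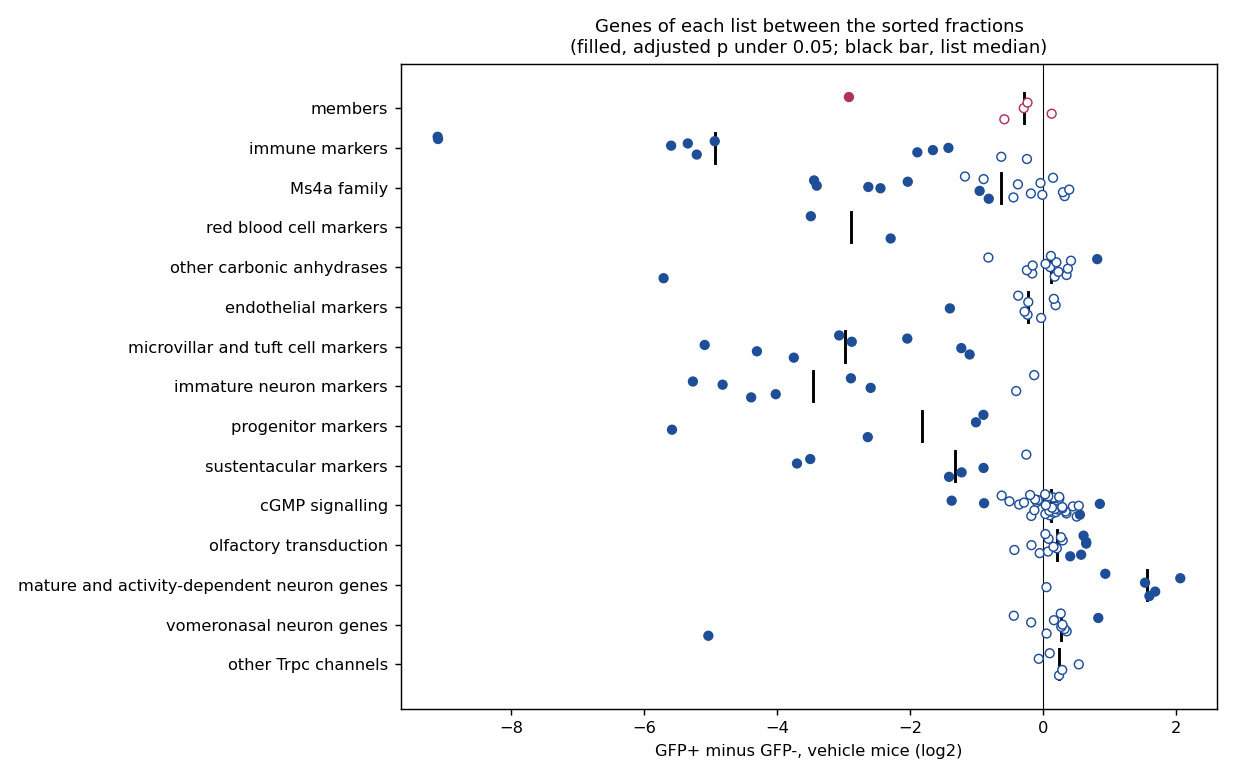
Differences in log2 signal between GFP+ and GFP- cells of vehicle mice (horizontal axis) for the genes of each list (vertical axis), filled where the adjusted p was under 0.05, with a black bar at the list median and the members in red. Pde2a, at -2.92, stands apart from the other 4 members. It lies within the range of the immune, Ms4a, red blood cell, microvillar, immature neuron, progenitor and sustentacular lists, among others.

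Markers of other cell types moved with the sort in the same direction as Pde2a. Of 11 immune markers, 9 were lower and 0 higher in GFP+ cells under each treatment, with a median of -4.94 in vehicle mice and -4.63 in odorant mice. The count was 7 in each treatment without dim probesets. Adgre1 and Aif1 were not called, at -0.24 and -0.63 in vehicle mice. The shares over all gene probesets, for these and the next lists, were 9.97% lower and 7.76% higher in vehicle mice. In odorant mice they were 7.84% and 3.57%. S100a9, made by neutrophils, was at least 309-fold lower in vehicle mice, Lyz2, the lysozyme of myeloid cells, 40.6-fold and Ptprc, the CD45 of all leukocytes, at least 22.1-fold. The mean log2 signal of the list was 5.48 to 6.09 on GFP+ and 9.18 to 10.605 on GFP- arrays of vehicle mice, and 5.49 to 6.01 and 9.11 to 10.13 in odorant mice. Their part in the Pde2a result was not tested.

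Markers of other non-neuronal and immature cells were lower in the GFP+ fraction as well. All 8 of 8 microvillar and tuft cell markers were lower in both treatments. Among them Foxi1, a factor of ionocyte-like microvillar cells, differed by -5.09 on the log2 scale in vehicle mice, with 1 of 4 GFP+ arrays above background. Also lower in both treatments were 6 of 8 immature neuron markers, 4 of 4 progenitor markers and 2 of 2 red blood cell markers. Dpysl3, an immature neuron marker and a protein of growing axons, was 16.2-fold lower in vehicle mice. Without dim probesets 5 microvillar and tuft cell markers and 2 progenitor markers were called lower in each treatment, and in odorant mice 1 red blood cell marker was with quantile normalization or all 16 arrays in 1 fit. The tuft cell genes Avil and Chat were at background on every array. Sustentacular, or supporting, cell markers were lower for 5 of 6 in vehicle mice and 2 of 6 in odorant mice, or 5 and 4 with the replicate block, and the difference between treatments was not tested. Of 6 mature and activity-dependent neuron genes, 5 were higher in vehicle mice and 4 in odorant mice, with 0 lower. All 8 endothelial markers were at background on every array, with 1 of 8, Eng, called lower.

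By likeness of pattern over the 16 arrays, Pde2a was closest to 3 genes that were also lower in GFP+ cells. Their cell source was not tested. Of 10388 gene probesets above background on 4 or more arrays, the 3 with the highest Pearson r were Cd53, a leukocyte surface protein (r = 0.989), B2m, the light chain of MHC class I (r = 0.989), and Gnai2 (r = 0.987). Since the arrays form 2 clusters by fraction, any gene depleted from GFP+ cells scores high, so r was also taken with each group centred on its mean. It was then 0.885 for Cd53, 0.889 for B2m and 0.866 for Gnai2. Of the candidates, 99.98%, 99.99% and 99.95% had a lower centred r, though the 3 genes were picked on these same arrays. Cd53 reached 7.07 in GFP+ cells of odorant replicate 4, its highest GFP+ value, on the array where Pde2a was also highest among GFP+ arrays, at 7.55. It was highest of all, at 11.88, in GFP- cells of vehicle replicate 3, where Pde2a peaked at 10.59. Cd53 was picked for its likeness to Pde2a on these arrays, so shared peaks follow from that choice and are a description only.

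Car2 was closest in pattern to Fech, the enzyme that inserts iron into haem (r = 0.839, or 0.787 with groups centred), Lta4h, an enzyme of leukotriene synthesis (0.832, or 0.870), and Pid1 (0.800, or 0.778). These are descriptions over arrays that share pools of mice.

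**Figure D4:**
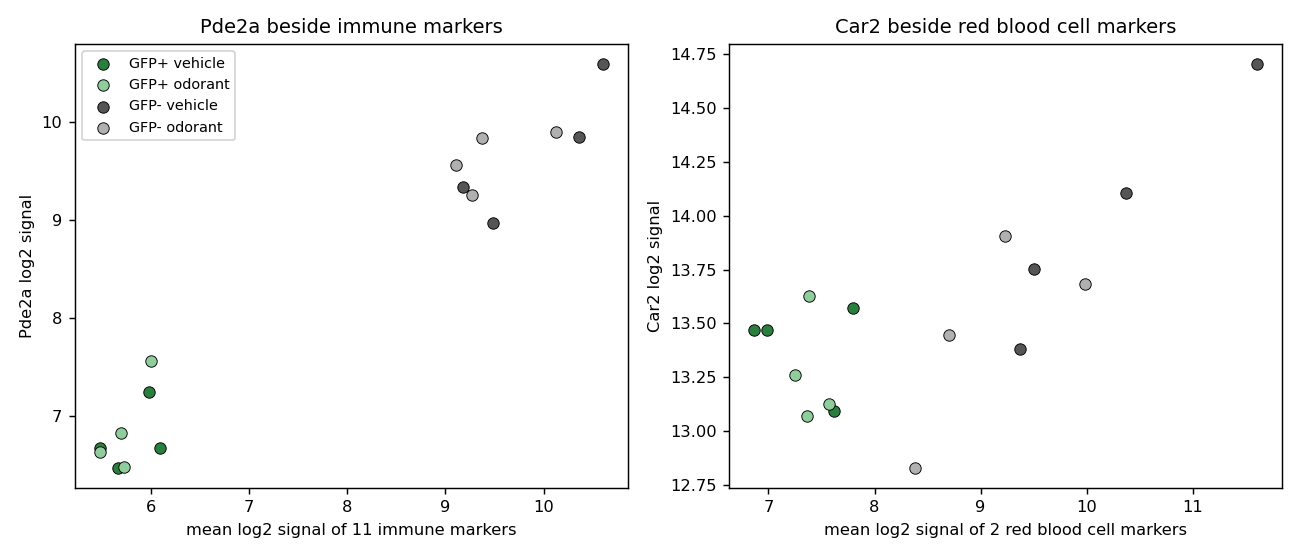
Pde2a log2 signal against the mean log2 signal of 11 immune markers (left) and Car2 log2 signal against the mean of 2 red blood cell markers (right), 1 point per array, coloured by fraction and treatment. In the left panel the 8 GFP- arrays lie at 9.11 or above on the immune axis and the 8 GFP+ arrays at 6.09 or below, and in the right panel Car2 and the red blood cell markers are both highest on the same array, GFP- vehicle replicate 2.

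Within the GFP- fraction, where Car2 varied most, it was compared over the 8 pools with the markers of 8 lists, as was Pde2a, which makes 16 relations. Car2 varied with the mean of the 2 red blood cell markers, Slc4a1, the anion exchanger of the red cell membrane, and Alas2, which starts haem synthesis there (Pearson r = 0.913, exact permutation p = 0.0020, adjusted p = 0.033, n = 8). Spearman's rho was 0.786 (exact permutation p = 0.028, adjusted p = 0.39). Without the 2 arrays farthest from the median of the markers r was 0.660 over 6 arrays, so its strength rests in part on those 2. With each treatment centred it was 0.884 over 8, and without the pools numbered 4 it was 0.894 over 6. GFP- cells of vehicle replicate 2 were highest in all 4 of these genes, at 14.71 for Car2, 13.30 for Slc4a1, 9.91 for Alas2 and 11.92 for Car1, and those of odorant replicate 4 were lowest, at 12.83, 9.95, 6.81 and 7.62.

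Pde2a followed the immune markers less closely over the 8 GFP- arrays (r = 0.760, exact permutation p = 0.025, adjusted p = 0.13). Its rho was 0.643 (exact permutation p = 0.096, adjusted p = 0.39, n = 8) and r was 0.432 without the 2 farthest arrays, so that relation rests on those arrays. With each treatment centred it was 0.809, and without the pools numbered 4 it was 0.696 over 6 arrays. Car2 against the immune markers gave r = 0.747 (exact permutation p = 0.024, adjusted p = 0.13, n = 8) and 0.460 without them. A single treatment has 4 GFP- arrays, too few for a correlation of its own. None of the other 13 relations passed after adjustment. Among them, Pde2a against the progenitor markers gave r = 0.677 (adjusted p = 0.25, exact permutation test, n = 8), or 0.846 without the 2 arrays farthest from the median of those markers.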

How the data were processed

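The values are log2 probeset signals that the authors deposited for 16 arrays, 4 in each of 4 groups. They were made with Affymetrix Expression Console, per the submitters' processing notes, with the version and the steps of background correction and normalization not given in the sources used here. They were used as deposited. Of 28846 probesets, 6640 controls were left out. Of the 22206 left, 19572 carried 1 gene symbol, 0 several and 2634 none; all 19572 matched the RefSeq GRCm38.p6 gene table by gene ID, and 55 symbols stood on more than 1 probeset.

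Each of 5 comparisons was fitted over all gene probesets with limma 3.58.1 (lmFit and eBayes, R 4.3.3), two-sided, on the arrays of its groups, with Benjamini-Hochberg adjustment and a threshold of 0.05. The code of the fits was run on simulated arrays drawn independently of one another, which does not cover fractions that share a pool. Background was the 95th percentile of 23 antigenomic controls per array. A fold against a group with no array above it is "at least", with the level in place of lower values. None is given with both groups at background. Precision is limited by the number of arrays. Correlations across GFP- arrays used exact permutation tests (scipy 1.17.1, Python 3.11.15), and plots matplotlib 3.10.9.

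The members, 15 gene lists and motifs were chosen with earlier results of these data known. Named genes were the members, Omp and S100a5, up to 4 genes per list with the smallest p among those called in vehicle mice, and the 3 genes most like Pde2a and Car2 over 16 arrays; Eif2s3y, Ms4a1, Avil and Chat were named after their values were seen. Promoter sequences are from RefSeq (GRCm38.p6), which gave windows for Gucy2d, Pde2a, Cnga3, Trpc2 and Gucy1b2, not Car2.

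Fractions of the same treatment and number share a pool of mice, so numbers pair them. The correlation of their deviations from group means was 0.11 to 0.16 with vehicle and 0.014 to 0.36 with odorant. Alternatives were a replicate block, array medians subtracted, quantile normalization, no dim probesets (above background on fewer than 4 arrays), all 16 arrays in 1 fit, the pool as a random block in the interaction, each array left out, a 99th percentile background and, chosen after seeing the data, the pools numbered 4 left out.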

Additional observations from a re-analysis of the deposited data

How the results depend on the processing

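The count of members called was unchanged in all 5 comparisons under a replicate block (1 in each fraction comparison, 0 elsewhere), quantile normalization, no dim probesets, all 16 arrays in 1 fit, the pool as a random block, the pools numbered 4 left out and each array left out. With array medians subtracted 2 members were called in each fraction comparison, Pde2a lower and Cnga3 higher. That setting also raised the calls over all probesets from 3936 (1723 higher, 2213 lower) to 12050 (10363 and 1687) in vehicle mice and from 2535 (793 and 1742) to 9277 (7757 and 1520) in odorant mice; without dim probesets the odorant count was 1661. Under the replicate block, which pairs the fractions of a pool, Pde2a had adjusted p = 5.45e-04 and 3.57e-04, the calls were 3919 and 2700, and no member's call changed. Between treatments, numbers are shared but pair no mice (r -0.034 to 0.25 in GFP+ and -0.10 to 0.30 in GFP- cells), and the block called 0 probesets. With a 99th percentile background, 2 members again exceeded it on 4 or more arrays. Over all settings Pde2a between fractions lay between -3.20 and -2.46, always called. Signs that turned belong to differences that were not called and whose causes were not tested. With array medians subtracted these were Gucy2d (0.13 and 0.057 between fractions), Gucy1b2 (0.071, vehicle), Car2 (0.12, odorant) and Omp (0.0077 for the odorant in GFP- cells and -7.05e-04 for the interaction). With quantile normalization they were Omp (-0.041, vehicle fractions) and Cnga3 (-0.029, odorant fractions, and -0.033, odorant in GFP+ cells). Without the pools numbered 4 they were Omp (-0.0031, GFP+), Gucy2d (-0.13, GFP-, and 0.25, interaction). Leaving out 1 array moved the odorant difference in GFP+ cells from -0.028 to 0.082 for Cnga3, -0.12 to 0.26 for Pde2a, -0.0025 to 0.038 for Omp and -0.098 to 0.17 for S100a5; in GFP- cells from -0.059 to 0.27 for Gucy2d and -0.28 to 0.26 for Pde2a; and in the interaction from -0.097 to 0.013 for Cnga3, -0.12 to 0.20 for Gucy2d, -0.15 to 0.39 for Pde2a and -0.29 to 0.15 for Gucy1b2. Signal over background limits Gucy2d, Cnga3 and Gucy1b2, for which no fold can be given.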
